A study of Drosophila melanogaster with 11 samples.

Results

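The transcript levels of 9 genes that encode sequence-specific factors of the early Drosophila melanogaster embryo were followed, out of 17753 genes in the count table: zld, Trl, Clamp, grh, Elba1, Elba2, Elba3, insv and ttk. They were chosen by name, as pioneer factors and as DNA-binding regulators or insulator proteins of the early zygotic genome, and each matched 1 row. RNA-seq libraries came from 3 samples of control (Ctrl) embryos and 4 samples of Domino knockdown (DomKD) embryos, all at stage 5, when zygotic genome activation (ZGA) is under way, and from 4 samples of unfertilized eggs. Ctrl embryos and eggs carried the genotype labelled t180, and DomKD embryos the genotype labelled t216. According to the methods, females carrying an shRNA transgene (Domino shRNA, or the TRiP line control) were crossed with males carrying the germline-specific driver mat-alpha-Gal4, and their daughters laid the eggs, so the shRNA acts in the mother's germline and the eggs carry little of the target. All groups share this maternal driver, and there were no DomKD eggs.

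At the start of development the embryo lives on RNA and protein that the mother placed in the egg, and its own genome is switched on while much of the maternal RNA is degraded. Pioneer factors bind DNA in closed chromatin and help to open it. Zelda (zld) is the main activator of the first zygotic genes, GAGA factor (Trl) and CLAMP (Clamp) bind GA-rich repeats, and Grainy head (grh) opens enhancers in epithelia. Elba1, Elba2 and Elba3 form ELBA, a boundary complex of the early embryo in which Elba1 and Elba2 contact DNA through BEN domains and Elba3 joins them. Insensitive (insv) is another BEN domain protein, a repressor related to Elba1 and Elba2, and Tramtrack (ttk) is a BTB zinc finger repressor supplied by the mother that keeps pair-rule genes silent before ZGA.

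Each library held between 11809453 and 17700171 counts, and no 2 libraries of a group were duplicates. The knockdown was visible in the target itself: dom, which encodes the remodeler that deposits H2A.Z, was at 1923 ± 64.4 CPM (counts scaled to a common library total after TMM normalization, SD, n = 3) in Ctrl embryos and at 76.9 ± 21.4 CPM (n = 4) after knockdown, with a log2 difference of -4.66 (SE 0.18, edgeR adjusted p = 1.24e-06). Cellularization markers were higher in embryo libraries, where the summed level of 3 measured genes was 2327 to 4871 CPM against 146 to 172 CPM in eggs. Most of this sum was slam. Its RNA was also present in eggs, at 2442 to 2896 counts per library, where nullo and bnk had 0 counts. Follicle cell markers summed to at most 0.947 CPM in any library. A bulk library cannot tell fewer cells that express a gene from less RNA per cell. No source says that the replicates came from separate collections, so the p-values measure the spread between these samples.

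In place of sequences, which were not used here, the loci are given in dm6 coordinates of the Ensembl release 115 annotation. insv (chr2L:2575280-2576997, minus strand) and Elba2 (chr2L:2577687-2579179, plus strand) point away from each other, with start sites 690 bases apart and no gene between them. Elba1 (chr2L:4683052-4684461, minus strand) lies in an intron of CG11929, which is on the plus strand, and its start site is 3050 bases from that of Elba3 (chr2L:4687511-4688956, plus strand). The 4 genes are short and compact, with exon lengths of 1352 to 1654 bases and 1 or 2 exons each. The other members are longer: zld (chrX:19766465-19783548, minus strand), Trl (chr3L:14747929-14761049, minus strand), Clamp (chr2L:22165720-22169143, minus strand), grh (chr2R:17801132-17842820, plus strand) and ttk (chr3R:31713867-31735392, plus strand) span between 3424 and 41689 bases.

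**Figure D1:**
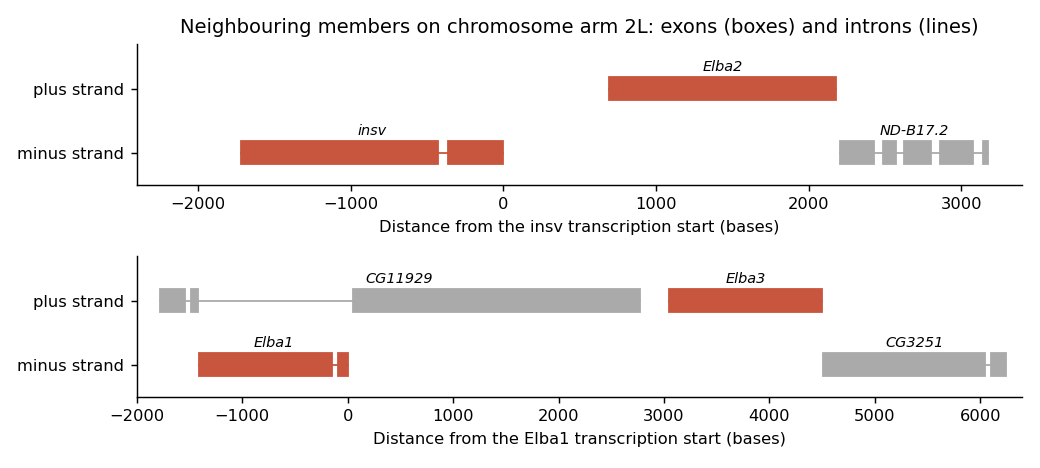
Maps of the insv and Elba2 locus (top) and of the Elba1 and Elba3 locus (bottom), by distance in bases from the insv or the Elba1 start site, with exons as boxes on their strand, members in red and other genes in grey. Start sites are 690 and 3050 bases apart, and Elba1 sits inside an intron of CG11929.

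Exon sharing touches the level of Trl. Of its 6254 exon bases, 4865 are shared with other genes on the same strand, 4441 of them with CG42507, which lies wholly inside the exons of Trl and had 0 counts in every library. Across the table, 1 of 468 genes whose exon bases are all shared with a gene on the same strand had any count, against 95 of 132 genes sharing all bases with the other strand only, so reads in shared exons on the same strand were not counted. Trl counts of 177 to 350 per library therefore come from about 1389 bases, its ratios between groups do not depend on this length, and its level per length depends on which length is used. Clamp and grh share 502 and 520 exon bases with genes on the other strand only.

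Between genes, levels were compared in TPM, a scaled count that is divided by exon length. In Ctrl embryos the order was Elba1 (1072 ± 44.2 TPM, SD, n = 3), Elba3 (817 ± 60.0), Elba2 (723 ± 81.0), insv (409 ± 37.97), Clamp (345 ± 6.06), zld (113 ± 11.7), grh (21.1 ± 4.41), Trl (7.53 ± 0.919) and ttk (7.44 ± 2.84). The libraries of Trl and ttk overlapped, and those of each other neighbouring pair in this order did not, though Elba2 and Elba3 were close (630 to 775 TPM and 780 to 887 TPM). The 3 ELBA genes thus stood among the most abundant transcripts, Elba1 at rank 134 and Elba2 at rank 184 of 12600 genes with a count in Ctrl embryos, while zld was at rank 1790. With the unshared exon bases as length, Trl was at 33.9 ± 4.14 TPM and came before grh. In DomKD embryos Elba2 (1010 ± 121 TPM, n = 4) came before Elba3 (945 ± 47.7) and ttk (8.15 ± 1.73) before Trl (6.54 ± 0.410), each pair with overlapping libraries.

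The eggs had another order. Elba2 (294 ± 7.90 TPM, n = 4) was the most abundant member, followed by Clamp (238 ± 10.9), insv (164 ± 2.17), ttk (54.4 ± 1.69), zld (43.3 ± 9.97) and Trl (3.55 ± 0.204, or 16.0 ± 0.918 over unshared bases), and the libraries of ttk and zld overlapped. grh, Elba1 and Elba3 had 0 counts in each of the 4 egg libraries, which allows at most 0.190 CPM per library at a floor of 3 counts (counting error only). By the rule of over 5 TPM in at least 3 of 4 egg libraries, 5 of the 9 genes were maternally deposited: zld, Clamp, Elba2, insv and ttk. Trl was under this limit and became a sixth only with the unshared length or with a limit of 1 TPM. The maternal and the purely zygotic members thus divide the ELBA genes: RNA of Elba2, like that of its neighbour insv, was in the egg, and RNA of its partners Elba1 and Elba3 was not detected there.

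**Figure D2:**
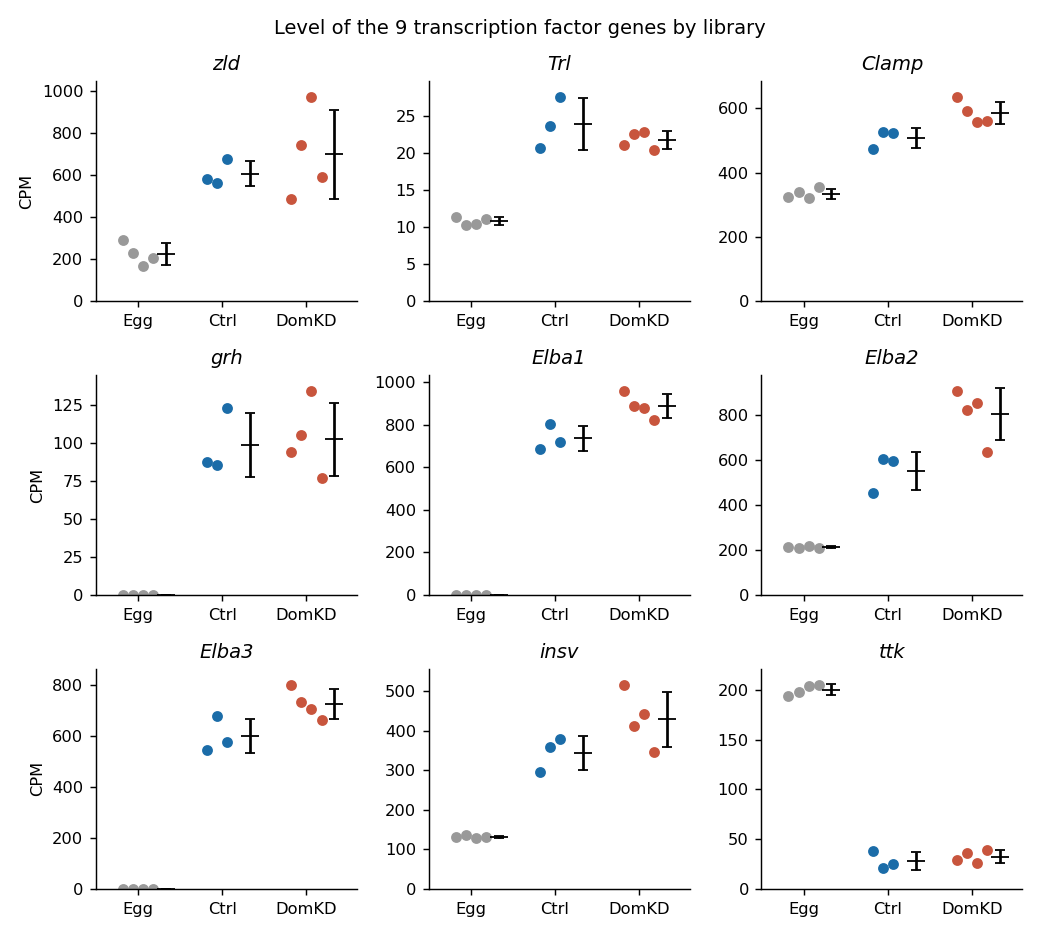
Level of each factor in CPM (linear axis from 0, its own scale in each panel), with points for single libraries of eggs (grey, n = 4), Ctrl embryos (blue, n = 3) and DomKD embryos (red, n = 4) and a bar for mean and SD. grh, Elba1 and Elba3 are at 0 in all eggs, ttk falls from about 200 CPM in eggs to under 40 CPM in embryos, and the DomKD points of Elba1, Elba2 and Clamp lie above all Ctrl points.

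The comparison of Ctrl embryos with eggs asked how the relative level of each factor changes across ZGA. CPM gives a share of each library, so a rise is relative to the other RNA. A change in total RNA between egg and embryo was not measured. All 9 members changed, 8 of them up and ttk down (edgeR, adjusted p at most 6.2e-06), in a comparison where 85.8% of the 7565 genes tested were called, 46.6% being higher and 39.2% lower, so a change as such does not set the members apart. The groups did not overlap for any member, as for 85% of genes tested. The median log2 fold change of the members was 1.39, and that of all genes 0.14. The comparison of DomKD embryos with the same eggs, so not an independent one, also gave 8 members higher and ttk lower, where 88.6% of 7423 genes were called, 47.2% being higher and 41.4% lower, and groups did not overlap for 85.8%.

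zld, the activator of the earliest zygotic genes, was at 291, 228, 169 and 205 CPM in egg replicates 1 to 4 and at 578, 564 and 674 CPM in Ctrl replicates 2 to 4. Its lowest embryo library was thus well above its highest egg library. The fold change was 2.71 (log2 1.44, SE 0.15, edgeR adjusted p = 6.2e-06), and in DomKD embryos the log2 change against eggs was 1.62 (SE 0.21). Among maternally deposited members zld had the widest spread in eggs, with a coefficient of variation of 22.9% where those of Clamp, Elba2, insv and ttk were between 2.02% and 4.61%.

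Clamp, whose protein also guides the dosage compensation complex to the X chromosome, was at 325, 339, 321 and 355 CPM in eggs and at 472, 527 and 522 CPM in Ctrl embryos. It showed the smallest rise of the 8, with a log2 fold change of 0.60 (SE 0.060, edgeR adjusted p = 3.99e-06). Trl was at 11.4, 10.3, 10.4 and 11.1 CPM in eggs and at 20.6, 23.6 and 27.5 CPM in Ctrl embryos. Its groups were 2.21-fold apart without overlap (log2 fold change 1.14, SE 0.11, edgeR adjusted p = 3.42e-06), on low counts that rest on part of its exons.

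grh went from 0 counts in all eggs to 87.3, 85.3 and 123 CPM in Ctrl embryos, at least 517-fold higher, taking 3 counts in the egg library with the highest floor. Elba1 rose from 0 to 687, 801 and 718 CPM, at least 3865-fold. Elba3, the adaptor of the complex, rose from 0 to 546, 677 and 578 CPM, at least 3155-fold. In DomKD embryos the same bounds were 538-fold for grh, 4658-fold for Elba1 and 3817-fold for Elba3.

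Elba2 was at 214, 211, 220 and 211 CPM in eggs and at 452, 603 and 593 CPM in Ctrl embryos, a log2 fold change of 1.36 (SE 0.092, edgeR adjusted p = 1.84e-07). Its divergent neighbour insv was at 132, 135, 129 and 130 CPM in eggs and at 295, 357 and 379 CPM in Ctrl embryos, a log2 fold change of 1.39 (SE 0.081, edgeR adjusted p = 5.83e-08). The pair thus rose by similar amounts from egg to Ctrl embryo, and the ratio of insv to Elba2 in TPM was 0.557 ± 0.021 (SD, n = 4) in eggs and 0.567 ± 0.028 (n = 3) in Ctrl embryos.

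ttk was the only member to fall. It was at 193, 198, 204 and 205 CPM in eggs and at 38.5, 20.6 and 25.3 CPM in Ctrl embryos, 7.05-fold lower (log2 fold change -2.82, SE 0.17, edgeR adjusted p = 8.87e-08). In DomKD embryos, at 28.8, 36.1, 26.1 and 39.1 CPM, it was 6.20-fold lower than in eggs. A log2 change of at least this size, in either direction, was seen for 17.4% of genes in the Ctrl comparison.

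**Figure D3:**
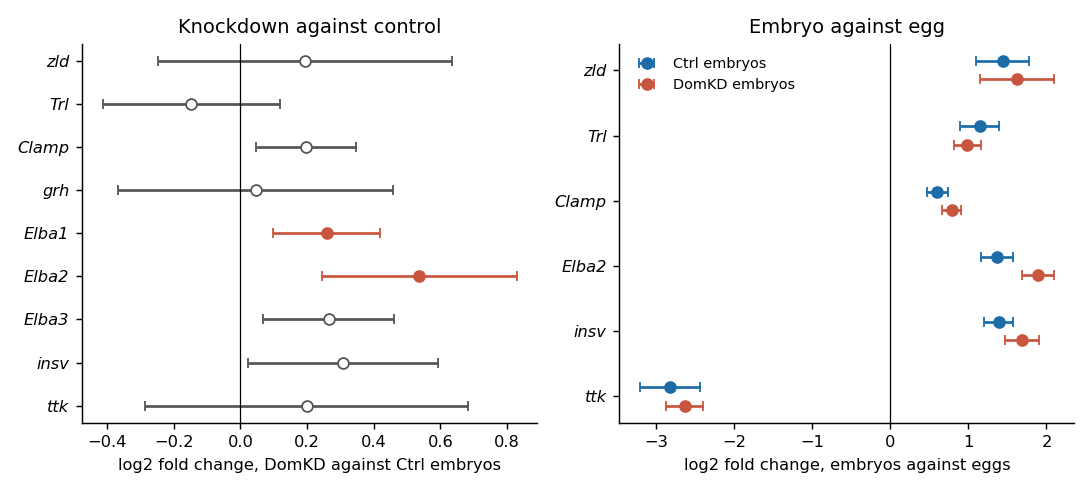
log2 fold changes (x axis) with 95% intervals of the edgeR fit: left, DomKD against Ctrl embryos for 9 genes, with filled red points for an adjusted p under 0.05; right, Ctrl (blue) and DomKD (red) embryos against the same eggs for the 6 genes with counts in eggs. On the left Elba2 (0.54) and Elba1 (0.26) are filled, and on the right ttk alone lies below 0, at -2.82 and -2.63.

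The comparison of DomKD with Ctrl embryos asked whether the level of these factors depends on maternal Domino. Elba2 and Elba1 were higher in DomKD embryos and no member was lower. This is 2 of 9 genes, beside 26.1% of the 7727 genes tested in either direction, 10.6% higher and 15.5% lower, so the count is near the background. Groups did not overlap for 3 members (Elba1, Elba2 and Clamp), beside 34.9% of all genes. The median log2 fold change of the members was 0.20, against 0.0028 over all genes.

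Elba2 was at 904, 819, 850 and 636 CPM in DomKD replicates 1 to 4, beside the Ctrl values of 452, 603 and 593 CPM. All 4 DomKD libraries were above all Ctrl libraries, but replicate 4 exceeded the highest Ctrl library only slightly. The fold change was 1.45 (log2 0.54, SE 0.13, edgeR adjusted p = 0.0151), and leaving out any 1 library gave log2 values from 0.41 to 0.63 with adjusted p from 0.00458 to 0.0415. The call was kept under each alternative processing as well.

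Elba1 was at 957, 887, 879 and 822 CPM in DomKD embryos, beside 687, 801 and 718 CPM in Ctrl embryos, again without overlap. The difference was smaller, 1.20-fold (log2 0.26, SE 0.072, edgeR adjusted p = 0.0259). Its call was less stable: the adjusted p was 0.0805 without Ctrl replicate 2, 0.0852 without Ctrl replicate 4 and 0.0644 without DomKD replicate 2. The call was also lost with library size alone (adjusted p = 0.0524), with a limit of 100 mean counts (0.0583), with the replicate number as a block (0.0811) and with size factors from Zelda-zygotic genes, where the log2 difference was 0.16 (0.563). Elba3 was at 801, 735, 707 and 662 CPM in DomKD embryos, with replicate 4 under the highest Ctrl library, and its log2 difference of 0.26 (SE 0.087) was as large as that of Elba1 but did not pass (edgeR adjusted p = 0.0506). It did pass without Ctrl replicate 3 (adjusted p = 0.0198) and without DomKD replicate 4 (0.0410), as well as with DESeq2 size factors (0.0471), the DESeq2 test (0.0276), no filter on low counts (0.0148) and all 11 libraries in the fit (0.0341).

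The proportions of the ELBA transcripts were also compared within libraries. The ratio of Elba1 to Elba3 in TPM was 1.31 ± 0.043 (SD, n = 3) in Ctrl and 1.31 ± 0.026 (n = 4) in DomKD embryos, and all 7 embryo libraries lay between 1.26 and 1.35. The ratio of Elba2 to Elba1 was 0.595, 0.682 and 0.748 in Ctrl and 0.856, 0.836, 0.876 and 0.700 in DomKD embryos, so the groups overlapped through DomKD replicate 4. The purely zygotic pair thus kept nearly fixed proportions, whereas Elba2 varied more against them. The ratio of insv to Elba2 was 0.535 to 0.589 in Ctrl embryos and 0.454 to 0.514 in DomKD embryos, without overlap; no test was run on these ratios.

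insv itself was at 515, 412, 441 and 347 CPM in DomKD embryos, overlapping the Ctrl range of 295 to 379 CPM. Its log2 difference of 0.31 (95% interval 0.02 to 0.59) did not pass after adjustment (edgeR adjusted p = 0.104), though it did without DomKD replicate 4 (log2 0.40, adjusted p = 0.0326), with no filter on low counts (0.0313) and with all 11 libraries in the fit (0.0425). Clamp was at 634, 590, 558 and 560 CPM in DomKD embryos, each above the highest Ctrl library. Its log2 difference of 0.20 (SE 0.067, 95% interval 0.05 to 0.35) did not pass either (edgeR adjusted p = 0.0559), but it did with the DESeq2 test (adjusted p = 0.0285), with no filter on low counts (0.0274) and with all 11 libraries in the fit (0.0201).

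zld varied more between DomKD libraries than between the groups, with 486, 742, 968 and 591 CPM in replicates 1 to 4, a range that spans all Ctrl values. Its log2 difference was 0.19 (SE 0.20, 95% interval -0.25 to 0.63, edgeR adjusted p = 0.502). Without DomKD replicate 3 it was -0.0037, so even its sign rests on that library. A rise above 0.63 or a fall below -0.25 on the log2 scale lies outside the interval, and differences within it remain compatible with these libraries.

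Trl was at 21.0, 22.6, 22.8 and 20.3 CPM in DomKD embryos, within the Ctrl range but for the lowest library (log2 difference -0.15, 95% interval -0.41 to 0.12, edgeR adjusted p = 0.392). grh was at 93.9, 105, 134 and 76.8 CPM, so its DomKD libraries spanned the Ctrl range (log2 difference 0.05, 95% interval -0.37 to 0.46, edgeR adjusted p = 0.874). ttk had a log2 difference of 0.20 (95% interval -0.29 to 0.68, edgeR adjusted p = 0.533), and its 4 DomKD libraries overlapped the Ctrl libraries.

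Embryo libraries also differed in cellularization markers, and the ELBA genes and insv moved with them in part. The cellularization genes nullo, bnk and slam, which are needed when cell membranes form at this stage, summed to 2327, 3182 and 3585 CPM in Ctrl replicates 2 to 4 and to 4504, 4379, 4871 and 3296 CPM in DomKD replicates 1 to 4. Of these genes bnk was called higher in DomKD embryos (log2 0.55, edgeR adjusted p = 0.0383), while slam (0.48, adjusted p = 0.0584) and nullo (0.39, adjusted p = 0.0833) did not pass. Sry-alpha, the fourth on the list, had 0 counts everywhere. Exon sharing is not reported for Sry-alpha, so its 0 counts are not read as absence of the RNA. Ctrl replicate 2 was lowest in these markers and in Elba1, Elba2, Elba3 and insv, and DomKD replicate 4 was the lowest of its group in all of them. Above these libraries the order differed: Ctrl replicate 4 had a higher marker sum than Ctrl replicate 3 but lower Elba1, Elba2 and Elba3, and DomKD replicate 3 had the highest sum of all but was below DomKD replicates 1 and 2 in Elba1 and Elba3.

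Ctrl replicate 3 and DomKD replicate 4 had nearly the same marker sum (3182 and 3296 CPM), and their levels were 801 and 822 CPM for Elba1, 603 and 636 CPM for Elba2, 677 and 662 CPM for Elba3 and 357 and 347 CPM for insv. Ctrl replicate 4 had a higher sum (3585 CPM) than DomKD replicate 4, with lower levels of Elba1 (718 CPM), Elba2 (593 CPM) and Elba3 (578 CPM) and a higher level of insv (379 CPM). Without Ctrl replicate 2 and DomKD replicate 4, an alternative added after these values were seen, Elba2 was called (log2 0.51, edgeR adjusted p = 0.00494) and Elba1 was not (log2 0.24, adjusted p = 0.0533). Both libraries left out were also the lowest of their group in Elba1 and Elba2, so these p-values are not independent of the choice and add no support. The marker sums of the libraries left in this fit did not overlap (3182 to 3585 CPM in Ctrl and 4379 to 4871 CPM in DomKD), so it does not compare the groups at an equal level of this sum. Some other measures of these libraries did overlap. Genes not maternally deposited held 3.50% and 4.13% of counts in Ctrl, and 4.24%, 3.56% and 4.01% in DomKD. The summed CPM of osk, nos, bcd, gcl, pgc and CycB was 4551 and 3913 in Ctrl, and 4209, 4606 and 4171 in DomKD. Most of this sum was CycB (mean of the Ctrl embryo group 3564 CPM), which was not called against eggs (log2 -0.10, edgeR adjusted p = 0.279). The summed CPM of the Zelda targets listed below, which include slam, did not overlap: 6466 and 7022 in Ctrl, and 8835, 8356 and 9055 in DomKD. The part of embryo age in the difference was not tested.

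**Figure D4:**
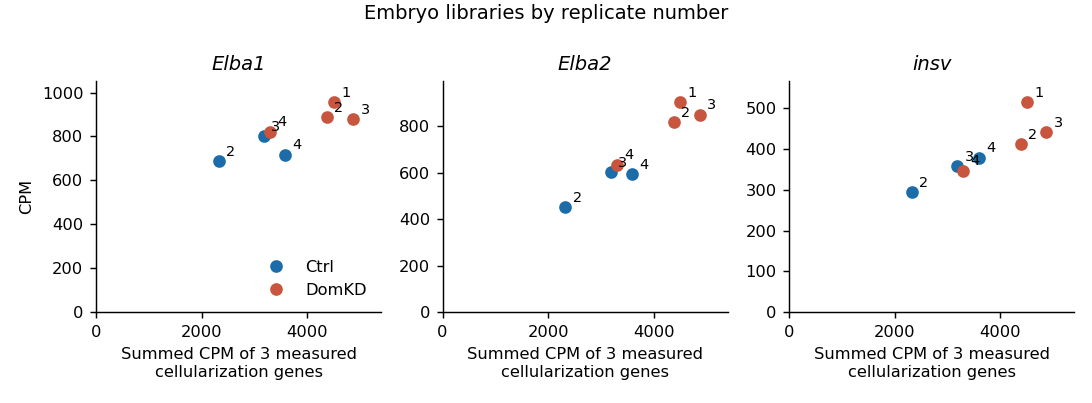
CPM of Elba1, Elba2 and insv (y axes) against the summed CPM of nullo, bnk and slam (x axis, mostly slam) in the 7 embryo libraries, numbered by replicate, with Ctrl in blue and DomKD in red. DomKD replicate 4 lies beside Ctrl replicate 3 in each panel, and the other DomKD libraries have higher marker sums (4379 to 4871 CPM).

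Genes that work with these factors were listed in 3 groups. The 28 Zelda targets are textbook examples chosen by name, not the study's own set, and include the cellularization genes nullo, bnk, slam and Sry-alpha. Of the 27 tested (Sry-alpha had no counts), 7 were higher in DomKD embryos and 1 was lower, beside 10.6% and 15.5% of all genes tested. Their median log2 fold change was 0.29 against 0.0028 over all genes. For genes it classed as Zelda-dependent, the paper reports unchanged transcript levels in DomKD embryos. Its analysis was limited to genes transcribed only in the zygote, whereas this list holds maternally loaded genes such as hb and slam, so the gene sets differ. The largest changes were in ths, an FGF ligand, at 14.5 ± 4.94 CPM in DomKD (n = 4) and 31.3 ± 10.7 CPM in Ctrl embryos (n = 3) with a log2 fold change of -1.13 (edgeR adjusted p = 0.0200), in zen, a homeodomain factor of the dorsal side (308 ± 37.9 and 184 ± 24.97 CPM, log2 0.73, adjusted p = 0.00198), and in halo, which controls lipid droplet transport (623 ± 106 and 410 ± 102 CPM, log2 0.59, adjusted p = 0.0342). bnk, hb, kni, tll and tsg were the other genes that were higher. The number higher was between 4 (without Ctrl replicate 2, DomKD replicate 1 or DomKD replicate 2) and 9 when 1 library was left out, and none was lower without Ctrl replicate 4. Scaling by Zelda-zygotic genes gave 4, but it sets the typical change of genes of this kind to none. A smaller number then follows in part from the setting. The number higher was 4 with a limit of 100 mean counts and 3 with the replicate number as a block.

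Of 15 other early regulators tested, cad, a maternal and zygotic posterior factor, was higher (278 ± 12.9 and 209 ± 41.4 CPM, log2 0.40, edgeR adjusted p = 0.0342), and da, a bHLH partner, was lower (86.5 ± 3.62 and 112 ± 14.2 CPM, log2 -0.38, adjusted p = 0.0133). No regulator was higher without Ctrl replicate 3, DomKD replicate 2 or DomKD replicate 3, and none was lower without Ctrl replicate 4. The number higher was 0 with library size alone or a limit of 100 mean counts, 2 with the DESeq2 test or no filter and 4 with all 11 libraries in the fit, and none was lower with Zelda-zygotic size factors or the replicate block. The other 13 did not pass, with log2 differences from 0.54 for D, a Sox factor (edgeR adjusted p = 0.0584), 0.38 for dl and 0.30 for bcd to -0.28 for opa, and with the coactivators nej and fs(1)h at 0.03 and -0.03. Of 16 partners of GAGA factor and CLAMP, 4 were higher and 1 lower, with a median of 0.03, beside 10.6% and 15.5% of all genes. The number higher was 0 with Zelda-zygotic size factors, 1 with a limit of 100 mean counts, 1 with the replicate block and 2 with library size alone, where 2 were lower. The largest differences were in mof, the histone acetyltransferase of dosage compensation (173 ± 3.69 and 241 ± 37.1 CPM, log2 -0.48, edgeR adjusted p = 0.00527), Nurf-38, a NURF subunit (log2 0.34, adjusted p = 0.0168), and lola, a BTB protein (log2 0.25, adjusted p = 0.0202). BEAF-32 and Chro, which bind insulators, were the other calls. When 1 library was left out, 0 (without DomKD replicate 2) to 4 partners were higher, with 1 higher without Ctrl replicate 2 or 4, and 1 was lower each time.

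**Figure D5:**
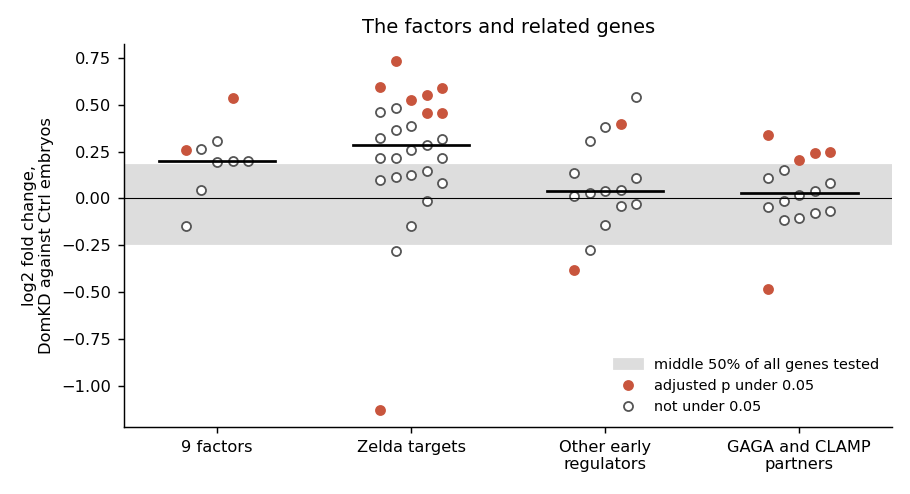
log2 fold change of DomKD against Ctrl embryos (y axis) for the 9 factors, 27 Zelda targets, 15 other early regulators and 16 partners of GAGA factor and CLAMP, with 1 point per gene (red for an edgeR adjusted p under 0.05), black lines for medians and a grey band for the middle 50% of all 7727 genes. The medians are 0.20, 0.29, 0.04 and 0.03, and ths is the lowest point at -1.13.

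Against eggs these lists showed where the members stand among early genes. Of all 7565 genes tested in Ctrl embryos against eggs, 46.6% were higher and 39.2% lower. The Zelda targets were listed as early zygotic genes, so their rise was built into the choice. All 27 Zelda targets were higher in Ctrl embryos (median log2 fold change 11.85, which for genes at 0 in eggs depends on the prior count), from modest rises of maternally loaded targets such as hb (log2 0.99) to genes with 0 counts in all eggs, as Elba1, Elba3 and grh. Of 15 other regulators, 11 were higher and 3 lower, with D, SoxN and odd at or near 0 in eggs and dl (log2 -3.44), da (-1.06) and cad (-0.59) lower, as ttk was. Of 16 partners, 12 were higher and 2 lower. msl-2, the male-specific subunit of the dosage compensation complex, rose from 3.66 to 89.7 CPM (log2 4.62), Iswi, the NURF ATPase, rose by 0.87, and Nurf-38 fell by 2.01 on the log2 scale.

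Finally, the 3 genes most like each member over the 11 libraries were found by Pearson's r of log2 CPM among 7605 genes, as a description in which eggs and embryos share much of the pattern. Elba1 and Elba3 were the closest to each other (r = 0.99999), followed for both by CG14014 and Bro, a factor subunit that partners Runt. The next genes for grh were sog, pros and tutl (r at least 0.9996). These values say little alone, since 383 to 434 genes had r over 0.99 with each of these 3 members, whose eggs are at 0.

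For Elba2 the closest were S2P, Eip63E and His3.3B, for insv Tctp, Eph and sesB, and for Clamp pths, Spf45 and RpL6, with 58, 135 and 67 genes over 0.99. ttk was most like gkt, MetRS and Ube4A, genes that were also lower in embryos, and Trl was most like CG16896, lncRNA:CR43399 and l(2)gl. zld stood apart, with no gene over 0.99. Its closest genes, Hipk, Helz and Gug (r = 0.987, 0.986 and 0.985), are long as zld is, with exon lengths of 8665 to 11604 bases beside 10605, and their coefficients of variation in eggs were 7.81%, 15.3% and 6.21%. With Spearman's rank correlation in place of Pearson's r, zld kept 2 of its 3 genes and each other member kept 0 or 1, so most of these names depend on the measure.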

How the data were processed

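RNA-seq (stranded total RNA libraries) of 3 Ctrl and 4 DomKD embryo samples and 4 egg samples was used. Reads were trimmed and aligned to dm6 by the authors in snakePipes (mRNA-seq mode), and featureCounts assigned them to genes of Ensembl release 96. The deposited table gives unnormalized counts and an exon length for each gene. The aligner and the strand setting are not given in the sources used here. 1 further column matched no listed sample and was not used.

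Fits were made in R 4.3.3 with edgeR 4.0.16 (quasi-likelihood, TMM, Benjamini-Hochberg adjustment over all genes tested, threshold 0.05) on the libraries compared, keeping genes whose mean count was 10 or more. The standard error is the size of the log2 fold change divided by the square root of F, and 95% intervals use the fit's degrees of freedom. The test was tried on simulated counts with 2-fold changes and the same spread setting for all genes. It was not tried on changes as small as those of the members in DomKD against Ctrl embryos. CPM used TMM factors over 11 libraries and, for log2 values, a prior of 2 counts. TPM was computed from deposited counts and lengths. Gene names and positions came from Ensembl release 115, which named 17626 of 17753 genes. Figures were drawn with matplotlib 3.10.9.

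The members and the lists of related genes and markers were chosen with earlier results of these data known. All 9 members were described. From each list up to 3 called genes with the largest log2 fold change were named with values, and other names were added after values were seen. 1 listed regulator, Med, had no row and was not analysed here. Alternatives were DESeq2 1.42.0, other size factors, other count limits, a fit of all libraries, a replicate block and each library left out. A search for motifs in promoters was planned and not run, since no sequence was used.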

Additional observations from a re-analysis of the deposited data

How the results depend on the processing

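For the members in DomKD against Ctrl embryos, 2 were called, against 1 with library size alone, with size factors from 82 Zelda-zygotic genes, with a limit of 100 mean counts and without Ctrl replicate 2 and DomKD replicate 4, 4 with the DESeq2 test, 5 with no filter on low counts, 5 with all 11 libraries in the fit, and 1 to 4 when 1 library was left out. The number of genes called, 2015, was 1136 with Zelda-zygotic size factors and 1201 with a limit of 100 mean counts, and 1292 (without Ctrl replicate 4) to 1816 when 1 library was left out; it was 1334 without DomKD replicate 2. The share of lower calls, 59.3%, was 72.0% with library size alone and 86.8% with Zelda-zygotic size factors. With the replicate number as a block, 1221 genes and 1 member (Elba2, adjusted p = 0.0478) were called. Same-numbered libraries did not deviate together (correlations of -0.38 to 0.057 for these groups), so the numbers were not taken as pairs.

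grh, not called, changed sign to -0.014 with library size alone, -0.053 with Zelda-zygotic size factors, -0.036 without Ctrl replicate 2, -0.049 without Ctrl replicate 3 and -0.11 without DomKD replicate 3, and zld to -0.0037 without DomKD replicate 3. When 1 library was left out, grh ranged from -0.11 to 0.23 and zld from -0.0037 to 0.34. Zelda-zygotic size factors turned each egg comparison over, since those genes were chosen for a low level in eggs and the median of all genes then moved to -8.69 and -8.64: in Ctrl embryos zld gave -7.36, Trl -7.69, Clamp -8.25, Elba2 -7.48, insv -7.46 and dom -8.34, and in DomKD embryos zld -7.09, Trl -7.76, Clamp -7.98, Elba2 -6.88 and insv -7.09. Each stays above the median. Of 423 member values under alternatives, 387 kept their direction and side of the threshold, 12 gained a call, 8 lost it and 16 changed direction. Depth limits Trl and ttk most, with 177 to 350 counts per library for Trl and 294 to 649 counts per embryo library for ttk.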

Other observations

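CG11929, whose intron holds Elba1, had 0 counts in all 4 egg libraries and 61 to 119 counts in embryo libraries, against 9144 to 13440 counts for Elba1. The antisense gene asRNA:CR45270, which overlaps grh, also had 0 counts in eggs and 83 to 156 in embryos. Tsen34, which shares exon bases with Trl, had 11 to 49 counts in any library.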
